A study of Mus musculus with 8 samples.

Results

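Neutrophil lineage cells are the granulocytes of parietal bone whose transcripts are led by the calprotectin genes S100a8 and S100a9, from dividing precursors to cells near release from the marrow. The cells were chosen from single-cell libraries by their own unique molecular identifiers (UMIs). A cell was a member if it had at least 500 detected genes, under 10% mitochondrial UMIs, at least 1% of its UMIs from S100a8 plus S100a9, and 2 or more UMIs for 2 or more of the granule and surface genes Ngp, Camp, Ltf, Retnlg, Ly6g and Mmp8. Members had under 2 UMIs of the macrophage gene C1qa and of the B cell gene Cd79a, and under 1% of UMIs from each of Col1a1 and Col2a1. This gave 2177 cells of 46420 that passed the limits on genes and mitochondrial UMIs, which is 4.69%. There were 2028 in wild type (WT) libraries and 149 in heterozygous (Het) libraries.

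The cells came from a collagenase digest of parietal bone from pups 4 to 5 days old. Strain B6.129(FVB)-Col1a2tm1Mcbr/J carries the G610C substitution in Col1a2, which encodes a chain of type I procollagen, and the pups were either WT or Het G610C. A single substitution cannot be checked in counts per gene. Each of the 4 WT and 4 Het libraries held cells of pups of 1 genotype, which could be pooled from several animals in a number not given per library, was not sorted, and was taken as 1 replicate. WT libraries S1, S2 and Het libraries S3, S4 used version 3 of the 10x kit. WT libraries S5, S6 and Het libraries S7, S8 used version 3.1 with a later software release, so kit and software cannot be told apart.

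Neutrophils are made in the marrow in a fixed order. Dividing early precursors load primary granules with the serine proteases Elane, Prtn3 and Ctsg and with myeloperoxidase (Mpo). Later precursors load secondary granules with lactoferrin (Ltf), cathelicidin (Camp), neutrophilic granule protein (Ngp) and lipocalin 2 (Lcn2), under the transcription factor Cebpe, and stop dividing at that stage. Cells that follow make gelatinase granule proteins such as Mmp9, and the last stages carry the chemokine receptor Cxcr2, which draws them into blood.

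The 3 granule genes of the rule that mark the secondary granule stage most sharply, Ngp, Camp and Ltf, all lie on mouse chromosome 9. In GENCODE M21 annotation of GRCm38, the build of the deposited counts, Camp spans positions 109847379 to 109849617, Ngp 110419747 to 110423012 and Ltf 111019271 to 111042767. Their RefSeq promoter windows (GRCm38.p6, 250 bases before and 50 after the start) are shown with those of Lcn2, which followed Camp from cell to cell, and of the resistin-like gene Retnlg, also in the rule. Capitals mark each match to TTGCNNAA on either strand, a short form of the site bound by C/EBP factors such as Cebpe.
Ngp, chr9:110419558-110419857, plus strand: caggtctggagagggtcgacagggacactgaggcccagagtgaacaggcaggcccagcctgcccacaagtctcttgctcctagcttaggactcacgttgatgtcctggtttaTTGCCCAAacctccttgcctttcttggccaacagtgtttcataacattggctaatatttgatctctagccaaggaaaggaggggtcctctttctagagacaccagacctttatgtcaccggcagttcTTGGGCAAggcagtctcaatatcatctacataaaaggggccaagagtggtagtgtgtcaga
Camp, chr9:109849407-109849706, minus strand: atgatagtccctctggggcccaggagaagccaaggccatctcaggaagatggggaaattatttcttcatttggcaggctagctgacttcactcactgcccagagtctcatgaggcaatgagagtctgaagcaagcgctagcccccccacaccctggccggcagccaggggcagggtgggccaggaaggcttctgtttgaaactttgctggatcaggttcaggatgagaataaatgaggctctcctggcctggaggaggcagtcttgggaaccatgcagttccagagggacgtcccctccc
Ltf, chr9:111019042-111019341, plus strand: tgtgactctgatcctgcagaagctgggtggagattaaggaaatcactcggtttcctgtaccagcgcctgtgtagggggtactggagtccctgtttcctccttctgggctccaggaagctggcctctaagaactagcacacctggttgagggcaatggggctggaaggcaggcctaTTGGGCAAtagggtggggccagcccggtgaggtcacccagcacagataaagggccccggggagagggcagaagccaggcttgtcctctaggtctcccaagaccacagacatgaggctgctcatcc
Lcn2, chr2:32387690-32387989, minus strand: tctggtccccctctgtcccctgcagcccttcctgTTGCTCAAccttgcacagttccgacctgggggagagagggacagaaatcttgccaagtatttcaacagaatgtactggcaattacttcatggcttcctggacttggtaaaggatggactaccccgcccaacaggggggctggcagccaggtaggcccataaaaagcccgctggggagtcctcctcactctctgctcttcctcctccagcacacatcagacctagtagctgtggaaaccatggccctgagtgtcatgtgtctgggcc
Retnlg, chr16:48872358-48872657, plus strand: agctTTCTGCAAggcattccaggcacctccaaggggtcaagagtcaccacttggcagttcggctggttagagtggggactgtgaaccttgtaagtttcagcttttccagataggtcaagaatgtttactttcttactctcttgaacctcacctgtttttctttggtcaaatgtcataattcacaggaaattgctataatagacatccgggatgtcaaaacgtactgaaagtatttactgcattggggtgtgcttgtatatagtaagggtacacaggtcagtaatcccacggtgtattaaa
The Ngp window held 2 matches and the Ltf, Lcn2 and Retnlg windows 1 each, and the Camp window held none. Of other windows searched and not shown, Mmp8 and S100a9 held 1 each, and Chil3, S100a8, Cxcr2, Il1b and Elane held none. A match was present in 3547 (10.8%) of 32851 promoter windows of the same length. Of the 2 matches in Ngp, the first began 138 bases before the start and the second 11 bases before it. The Ltf match began 75 bases before the start. These are letter matches in short windows and not sites of measured binding.

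The members were unevenly spread, and 89.2% of them were in the libraries S1 and S2. S1 held 1082 members and S2 held 860. The Het libraries of the same kit, S3 and S4, held 11 and 122. The WT libraries S5 and S6 held 61 and 25, and the Het libraries S7 and S8 held 9 and 7. S7 and S8 were left out of every test on gene levels because they had under 10 members, so the genotype difference in gene levels rests on kit version 3 alone, with S5 and S6 adding to the estimate of spread. The summed UMIs of members ran from 33589 in S8 to 5534285 in S1, and the median per cell from 2528 UMIs and 818 genes in S4 to 7920 UMIs and 1932 genes in S7. Some 527 barcodes occurred in 2 or more libraries, and 0 of the members did.

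As a share of all kept cells, members were 22.7% in S1 and 18.1% in S2, against 0.323% in S3 and 1.63% in S4. In kit version 3.1 they were 0.537% in S5 and 0.521% in S6, against 0.170% in S7 and 0.155% in S8. Within each kit version both WT libraries were above both Het libraries, by 20.9-fold of the means in kit version 3 and 3.26-fold in kit version 3.1, but S4 (Het) was above S5 and S6 (WT). The WT mean was 10.5% ± 11.6 (SD, n = 4) and the Het mean 0.569% ± 0.710 (SD, n = 4). The difference of -9.88 percentage points had p = 0.171 (exact permutation of the library labels, two-sided, 70 assignments), and the smallest p this design allows is 0.0286. When genotype was permuted within kit version, an alternative chosen after seeing the data, p was 0.0556, the smallest value that the 36 assignments allow.

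The libraries also differed in how much blood-forming tissue they held. Haematopoietic cells (members, or at least 3 of 11 haematopoietic genes detected) were 56.5% of kept cells in S1 and 46.5% in S2, and from 3.21% (S8) to 9.75% (S4) in the others. A gene counted as detected from any UMI, and the part of free RNA in this class was not tested. The class did not hold all erythroid cells (at least 10% haemoglobin UMIs, not members). S2 had 2211 haematopoietic cells, but 860 members and 1364 erythroid cells. Erythroid cells were 7.02% in S1 and 28.7% in S2 against 0.155% to 3.12% elsewhere, and B cells 6.33% and 9.13% against 0.132% to 0.854%, while macrophages were 5.41% and 1.60% against 1.62% to 3.76%. The part of marrow content in the difference between genotypes was not tested apart from the share of haematopoietic cells. On that measure members were 40.1% in S1, 38.9% in S2, 4.37% in S3, 16.7% in S4, 10.1% in S5, 6.61% in S6, 3.64% in S7 and 4.83% in S8. Both WT libraries were again above both Het libraries within each kit version, and S4 was above S5 and S6. The means were 23.9% ± 18.1 for WT and 7.38% ± 6.22 for Het (SD, n = 4 each), a difference of -16.5 points (exact permutation p = 0.171). The plot of shares by library shows both measures with their exact binomial intervals, which cover counting error only.

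**Figure D1:**
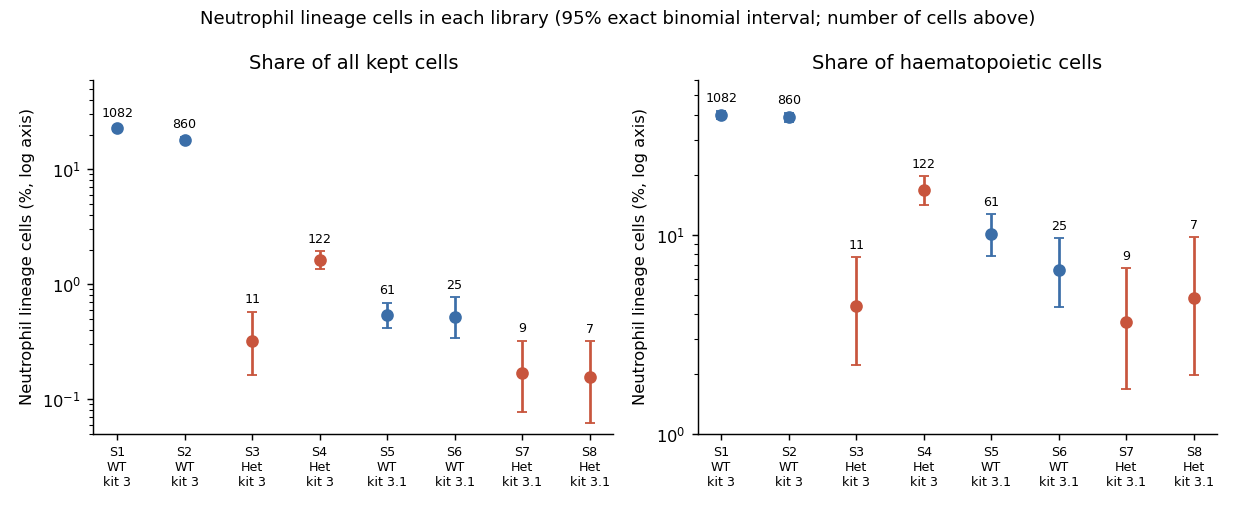
Percent of all kept cells (left) and of haematopoietic cells (right) that met the neutrophil rule in each library, on log axes, with 95% exact binomial intervals and the number of member cells above each point (blue WT, red Het). S1 and S2 sit at 22.7% and 18.1% of kept cells, and the Het library S4 at 1.63% is above the WT libraries S5 and S6.

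Members also held high levels of neutrophil genes that the rule did not use. S100a8 plus S100a9 themselves made 17.2% (S8) to 23.6% (S3) of the UMIs of members, a value the rule selected on. Among the other genes of at least 100 counts per 1000000 UMIs (CPM), the 15 with the greatest excess over all other kept cells were Lcn2, an iron-carrier binding protein of secondary granules, the cysteine protease inhibitors of the stefin A group (BC100530, Stfa1, Stfa2, Stfa2l1, Stfa3, Gm5483, Gm5416 and 2010005H15Rik), Wfdc21, Olfm4, Chil3, Cd177, Pglyrp1 and Ifitm6. Since the cells were chosen by related genes, their excess is a description without a test. Lcn2 averaged 9169 CPM ± 1585 (SD, n = 8 libraries) in members, against 51.3 in monocytes and 34.6 in macrophages. Cebpe averaged 392 CPM ± 98.1 in members and 24.1 and 2.39 in those cell types, and Csf3r, the receptor for granulocyte colony-stimulating factor, 183 CPM ± 76.3 against 73.4 and 11.3. Both were higher in members than in monocytes and in macrophages in 8 of 8 libraries.

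Genes of other blood cell types were present at differing levels. The 9 monocyte markers summed to 446 CPM (S6) to 837 CPM (S4), and in S2 they were 0.0643% of the UMIs of members against 0.0874% in other kept cells. The 6 T and NK cell markers summed to 0 (S8) to 91.4 CPM (S2), and were a greater share of UMIs in members than in other kept cells in all libraries but S8, from 0.00643% against 0.00521% in S1 to 0.00520% against 2.32e-04% in S6. In S3, S5, S6 and S7 these were 2, 9, 7 and 1 UMIs of 1 or 2 of the 6 genes. Of the 6, only Cd3d had enough counts to be tested between genotypes. The summed level of 10 macrophage markers ran from 29.8 CPM (S8) to 146 CPM (S1), that of 7 eosinophil, basophil and mast cell markers from 0 to 3.98 CPM, and that of 7 B cell markers from 0 (S6 and S8) to 736 CPM in S7, where 1 of the 7 was detected. Irf8, a transcription factor of monocytes, was at 0 in the members of all libraries but S1 and S2, where it was 7.05 and 17.9 CPM, below its mean of 191 CPM in monocytes. Matrix genes were present. The 9 osteoblast markers summed to 862 CPM (S2) to 6312 CPM (S8) and the 10 cartilage markers to 73.1 CPM (S2) to 2517 CPM (S5). Cells with at least 3 markers of another class made 3.84% of the members of S2, 18.1% of S1, 16.4% of S4 and 54.5% to 88.0% in the other libraries, where few members were found. The reverse also held, because S100a8 plus S100a9 made 0.154% of the UMIs of cartilage cells in S1 and 0.189% in S2, and at most 0.00750% in the other 6 libraries.

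The rule had few cells at its S100 limit and more at its granule limit. There were 2 members with 1 to 1.5% of UMIs from S100a8 plus S100a9, and 1 cell that met everything else had 0.5 to 1%. By contrast, 413 members had exactly 2 of the 6 granule and surface genes and 379 cells that met everything else had 1, with a median S100 share of 15.5% against 23.7% over all members. A further 79 cells met the marker rule with fewer than 500 genes.

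Genes of the stefin A group were abundant in members of all 8 libraries. Stfa1, an inhibitor of lysosomal cysteine proteases, was at 45471, 38333, 39628, 35267, 27585, 35369, 43029 and 34208 CPM in S1 to S8. BC100530 ran from 25669 CPM (S5) to 40530 CPM (S1) and Gm5483 from 18026 CPM (S4) to 26526 CPM (S8). The levels of these 3 genes overlapped between genotypes and kits, while Gm5416 was at 459 to 788 CPM in kit version 3 and 977 to 1404 CPM in kit version 3.1. All 8 genes lie on chromosome 16 between 36156811, the start of Stfa2l1, and 36455392, the end of Stfa3. They are close copies, so reads could be split among them and the level of a single copy is uncertain.

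The primary granule proteases and Mpo were detected unevenly. Elane, neutrophil elastase, was at 347 CPM in S1, 801 in S2, 910 in S4 and 4.46 in S5, and had 0 counts in S3, S6, S7 and S8. With 0 counts, a level of up to 58.6 CPM in S3, 22.3 in S6, 40.1 in S7 and 89.3 in S8 is allowed. Prtn3, proteinase 3, followed it with 319, 734, 1122 and 4.46 CPM in S1, S2, S4 and S5, and Mpo with 106, 321, 215 and 0 CPM. High and low libraries of both genotypes occurred, and the 3 libraries with the most members were the high ones. They came from few cells. Members with at least 1% of UMIs from Elane, Prtn3, Mpo and Ctsg, a limit set after the values were seen, numbered 32, with 11 in S1, 16 in S2 and 5 in S4, and all 32 had UMIs of at least 2 of 15 cell cycle genes, counted without thinning in cells of high depth. In S1 these cells had a median of 17333 UMIs and 3424 genes, and in S2 18745 UMIs and 3546 genes, several times the medians of all members (4120 UMIs and 1146 genes in S1, 3108 and 960 in S2).

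Within these early cells the secondary granule genes were at unequal levels. In S1 they held 18891 CPM of Camp, 1966 CPM of Ngp, 1008 CPM of Lcn2 and 9.34 CPM of Ltf. In S2 the order was the same, with 12187 CPM of Camp, 1476 of Ngp, 493 of Lcn2 and 6.95 of Ltf. Over all members Camp was at 19277 CPM in S1 and 18274 in S2, and Ltf at 5462 and 4723 CPM. Retnlg was 4.67 CPM in S1 and 420 in S2, against 10422 and 11653 CPM over all members. No test was made, since Camp, Ngp, Ltf and Retnlg chose the members, and a cell with little Ltf and Retnlg can enter mainly through Camp and Ngp.

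Most members differed along the secondary granule programme. Ngp, Camp and Ltf together made a median of 2.76% of UMIs per cell in S1 (0 to 29.1%), 1.08% in S2 (0 to 12%) and 5.57% in S4 (0 to 12.3%). The members were split at 1% and 5% of UMIs. In S1, 36.8% of members were under 1%, 28.8% between, and 34.4% over 5%. In S2 the shares were 49.1%, 24.9% and 26.0%, and in S4 26.2%, 21.3% and 52.5%. The over 5% class held 54.5% of the 11 members of S3, 14.8% of 61 in S5, 28.0% of 25 in S6, 44.4% of 9 in S7 and 0 of 7 in S8, which allows up to 41.0% by the exact binomial 95% interval. The intervals of S1 (31.6% to 37.3%) and S2 (23.1% to 29.1%) did not overlap that of S4 (43.2% to 61.6%), but they cover counting error only and no test over libraries was made on the classes.

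**Figure D2:**
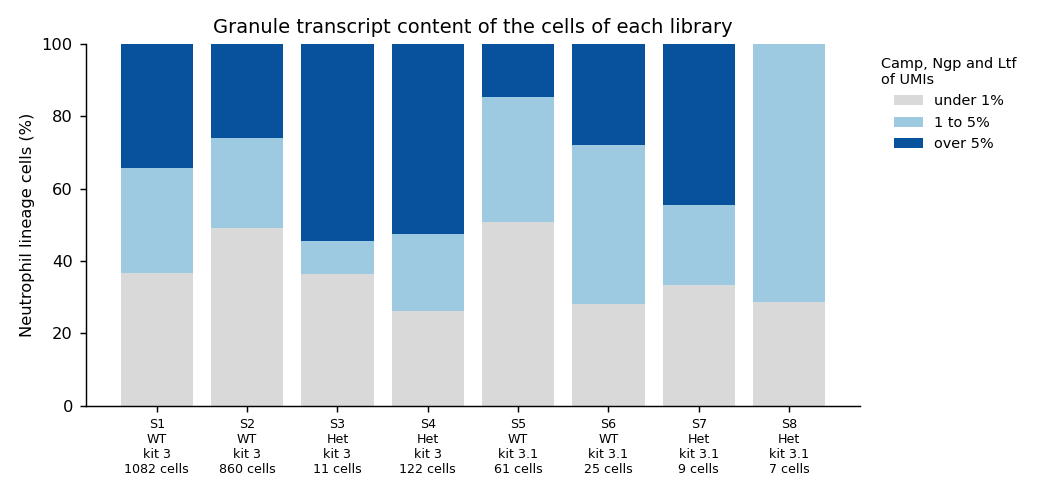
Percent of the neutrophil lineage cells of each library by the share of their UMIs from Camp, Ngp and Ltf (grey under 1%, light blue 1 to 5%, dark blue over 5%), with the number of cells under each bar. The over 5% class is 52.5% of cells in S4 and 34.4% and 26.0% in S1 and S2, and S3, S7 and S8 rest on 11, 9 and 7 cells.

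The 3 libraries with at least 10 cells in both outer classes (S1, S2 and S4) were compared gene by gene as log2 of CPM + 10, over 5% minus under 1%. The division used Ngp, Camp and Ltf, so their differences (5.31, 4.73 and 5.71 on the log2 scale) are not findings. Among all 7112 genes of at least 10 CPM, 12.1% were higher and 47.5% lower in the over 5% class in all 3 libraries, with a median difference of -0.32. All values on the classes are descriptions over cells of the same libraries, without a test.

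Genes of secondary granules and of division were higher in the over 5% class. Of 10 secondary granule genes outside the rule 8 were higher in all 3 libraries, with a median difference of 1.32. Chil3, a chitinase-like lectin of immature neutrophils, had the greatest difference of all genes, with 2422 against 54.1 CPM in S1, 3086 against 33.0 in S2 and 3469 against 14.4 in S4, or 6.19 ± 0.96 (log2, SD, n = 3). Lcn2 was at 13411 against 1905 CPM in S1, 13860 against 2702 in S2 and 14309 against 2843 in S4, a difference of 2.33 to 2.81. Cybb, the membrane subunit of the phagocyte oxidase, was also among the 10 highest (2.43 ± 0.20), with the protease Zmpste24 (3.83 ± 0.68), the lectin Fcnb (3.42 ± 2.47), the leukotriene enzyme Lta4h (2.46 ± 0.60), AA467197 (2.42 ± 0.22) and the protease inhibitor Serpinb1a (2.20 ± 0.54). The topoisomerase Top2a (2.66, at most 5.54) and Ube2c (2.23 ± 2.29), which drives exit from mitosis, completed the 10, and all 15 cell cycle genes were higher in 3 of 3 libraries. Their spread was wide, and Top2a and Ube2c were at 0 in the 32 cells of S4 under 1%.

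Receptors, cytokines and immediate early genes were lower in the over 5% class. Of 22 surface receptor genes 17 were lower in all 3 libraries and 2 higher, with a median of -0.85. Cxcr2 differed by -1.76 ± 0.15, Csf3r by -2.12 ± 0.05 and the formyl peptide receptor Fpr1 by -1.20 ± 0.17. Of 9 cytokine genes 8 were lower (median -1.76). The chemokine Ccl6 was at 17.7 against 931 CPM in S1, 17.7 against 780 in S2 and 19.1 against 1048 in S4 (-5.03 ± 0.18). Interleukin 1 beta (Il1b) was at 12.9 against 425, 17.7 against 426 and 9.56 against 919 CPM (-4.60 ± 0.85). The other genes among the 10 lowest were Pla2g7 (-4.30 ± 0.19), Ifitm1 (-4.10 ± 0.31), the chemokine Cxcl2 (-3.99 ± 0.15), the lectin receptor Clec4d (-3.98 ± 0.16), Jaml (-3.65 ± 0.33), H2-Q10 (-3.59 ± 0.42), the phosphatase Dusp1 (-3.37 ± 0.32) and the granule proteoglycan serglycin (Srgn, -3.25 ± 0.56). Of 15 immediate early genes 13 were lower (median -1.22). Of 11 interferon-related genes 7 were lower (median -0.87) and of 19 integrated stress response genes 11 (median -0.71), shares nearer to the 47.5% of all genes.

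Markers of other cells were lower in the same class, with 6 of 7 osteoblast, 7 of 8 cartilage, 6 of 7 erythroid and 5 of 5 endothelial markers lower in all 3 libraries. The cells over 5% also held more UMIs, with medians of 5899 against 2829 in S1, 5830 against 2453 in S2 and 2632 against 1824 in S4. The part of depth and of RNA from other cells in the differences was not tested.

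Of 7 gelatinase granule genes 4 were lower in the over 5% class in all 3 libraries, 1 was higher and 2 had mixed signs, against 47.5% of all genes lower. Mmp9, which the rule did not use, differed by -0.93 ± 0.04. Mmp9, gelatinase B, was at 953 against 1818 CPM in S1, 764 against 1510 in S2 and 764 against 1436 in S4. The other genes of the rule differed by -2.29 ± 0.12 for Retnlg, -0.45 ± 0.15 for Mmp8 and 1.15 ± 0.15 for the surface gene Ly6g. A cell without Camp, Ngp and Ltf can be a member only through these 3, so their values are tied to the selection and support nothing. Retnlg was highest at 0.25 to 1% of UMIs from Camp, Ngp and Ltf. There it was 22516 CPM in S1, 22593 in S2 and 24742 in S4, against 15029, 16296 and 13025 CPM under 0.25%, and it was 471 and 375 CPM over 10% in S1 and S2. Mmp8, neutrophil collagenase, was at 1641 CPM under 0.25%, between 2529 and 2602 CPM from 0.25% to 5%, and 578 CPM over 10% in S1. In S2 it was 1484 CPM under 0.25%, 2418 at 0.25 to 1% and 332 over 10%. Primary granule genes had mixed signs for 6 of 8 members of the list, and the Elane-rich cells lay in all 3 classes, with 11 under 1%, 18 between and 3 over 5%. The class under 1% thus held Elane-rich cells as well as cells with receptor and cytokine transcripts. In S4 the bins hold 12 to 56 cells and their values moved up and down more than in S1 and S2, as the plot of levels by granule transcript content shows.

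**Figure D3:**
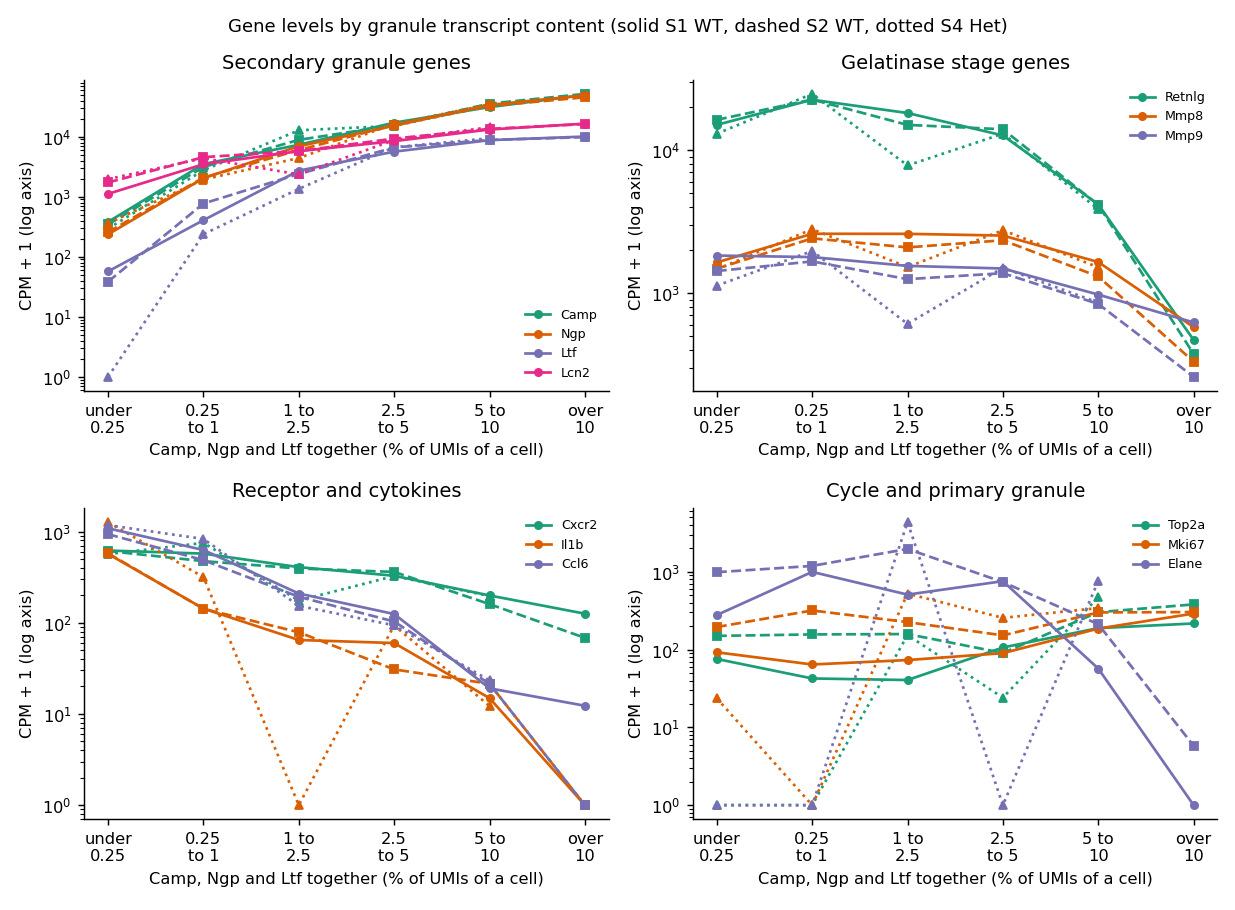
Levels of 13 genes as CPM + 1 (log axes) in cells grouped by the percent of their UMIs from Camp, Ngp and Ltf, which define the horizontal axis, for S1 (WT, solid), S2 (WT, dashed) and S4 (Het, dotted), in groups of at least 10 cells. Retnlg peaks at 0.25 to 1% in all 3 libraries (22516, 22593 and 24742 CPM), and Ccl6 is below 25 CPM at 5 to 10% in each.

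Relations between genes were also computed cell by cell. Each pair below includes Camp, which helped to make the classes, in the same cells, so the values restate the classes and add no support. Spearman's rho between Camp and Ngp, both as a share of the UMIs of a cell, was 0.91 over 1082 cells of S1, 0.92 over 860 of S2 and 0.82 over 122 of S4. Camp and Lcn2 had 0.83, 0.79 and 0.65, and Camp and Chil3 0.81, 0.77 and 0.80. Camp and Cxcr2 had -0.50, -0.48 and -0.38. Camp and Retnlg had -0.56, -0.46 and -0.70, but both chose the cells, and a member low in one must pass through other genes of the rule. Camp and Mmp8 were nearly unrelated in S1 and S2 (-0.09 and -0.08) and had -0.34 in S4. The same holds for the relations of Camp with Ngp and Mmp8. The cells of a library share depth and free RNA, and both genes share the total of the cell, so these are descriptions.

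Division was measured after each cell was thinned to 1000 UMIs, as the percent of members with UMIs of at least 2 of 15 cell cycle genes. By class it was 1.51% of cells under 1% granule transcript, 3.86% between and 11.3% over 5% in S1. It was 6.65%, 8.41% and 23.2% in S2, and 0%, 23.1% and 23.4% in S4 (0 of 32 cells under 1%). The classes were thinned in a separate random draw, so their cells do not add up to those over all members. Over all members of at least 1000 UMIs it was 5.56% in S1, 11.1% in S2, 1.67% in S5 and 0% in S6 (WT), and 27.3% in S3 and 15.6% in S4 (Het). S3 and S4 were above all 4 WT libraries, while the Het libraries S7 and S8, too small for the test, had 0 of 9 and 0 of 7 such cells. Without thinning the values were 12.1%, 20%, 9.84% and 8% in WT and 27.3% and 22.1% in S3 and S4, with 22.2% (2 of 9 cells) in S7 and 0 of 7 in S8. The means of the thinned values were 4.57% ± 4.91 in WT (SD, n = 4) and 21.4% ± 8.27 in Het (SD, n = 2). Their exact permutation p of 0.0667 is the smallest that the 15 assignments of 4 and 2 libraries allow. Within kit version 3 the difference was 13.1 points. S3 gave its value from 11 cells, and without S3 the difference over all kits was 11 points. With granule genes counted from 1 UMI, which admitted more cells and brought in S7 with 0 of 11 dividing, it was 7.94 points (exact permutation p = 0.286).

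Stage was also compared as log2 of the UMIs of 12 mature-stage genes over those of 12 immature-stage genes, none of them in the rule. The ratio was 2.21 in S1, 1.46 in S2, 3.18 in S5 and 4.03 in S6 (WT), and 0.794 in S3 and 0.939 in S4 (Het). S3 and S4 were both below all WT libraries, with means of 0.866 ± 0.103 (SD, n = 2) and 2.72 ± 1.12 (SD, n = 4). The difference of -1.85 had an exact permutation p of 0.133, where 0.0667 is the smallest possible. Within kit version 3 the difference was -0.970 on the same scale, and no Het library of kit version 3.1 could be tested. It was -0.976 with granule genes counted from 1 UMI (exact permutation p = 0.343).

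Between kit versions many members' genes did not overlap. Of 1144 genes of at least 100 CPM, 23.7% were higher and 14.2% lower in all 4 libraries of kit version 3.1 than in all 4 of kit version 3. Il1r2, a decoy receptor for interleukin 1, was at 40.3, 52.2, 19.5 and 29.9 CPM in S1 to S4 and 735, 594, 415 and 804 CPM in S5 to S8. Srgn was at 430 to 777 CPM and 1097 to 2054 CPM, and the complement receptor C5ar1 at 78.1 to 148 CPM and 268 to 453 CPM. Of the 9 immature-stage genes at that level 6 were lower in kit version 3.1 and 0 higher, among them Cebpe (430 to 505 against 238 to 388 CPM) and Chil3 (1261 to 3906 against 29.8 to 1065 CPM). Of the 18 surface receptors at that level 3 were higher and 0 lower. Kit, software and pups differ together here and cannot be told apart.

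**Figure D4:**
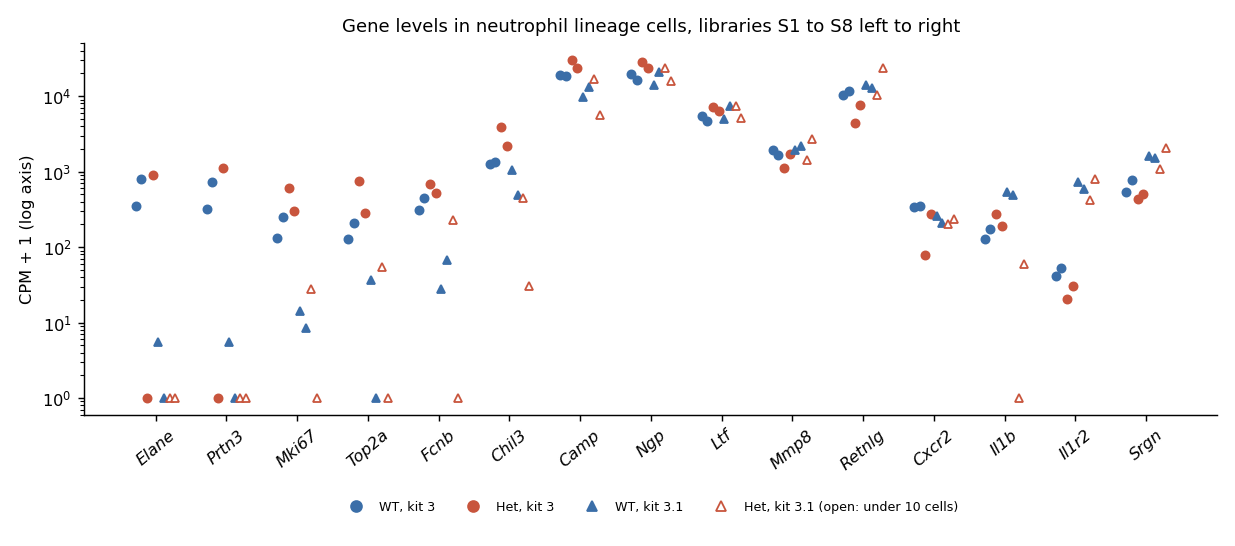
Levels of 15 genes in neutrophil lineage cells as CPM + 1 (log axis), 1 point per library, S1 to S8 from left to right within a gene (blue WT, red Het, circles kit version 3, triangles kit version 3.1, open symbols under 10 cells). Elane and Prtn3 are present in S1, S2 and S4 and at or near 0 elsewhere, and Il1r2 is 19.5 to 52.2 CPM in kit version 3 and 415 to 804 CPM in kit version 3.1.

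Gene levels were compared between Het and WT with edgeR's quasi-likelihood test on UMIs summed per library, with kit version in the model, over S1 to S6. Of 3751 genes tested 0% were called at a Benjamini-Hochberg adjusted p under 0.05. At an unadjusted p under 0.05 there were 252 genes, 134 (3.57%) higher and 118 (3.15%) lower in Het. With RLE scaling 160 of 249 such genes were higher. DESeq2 called 3, the cartilage collagens Col2a1, Col9a3 and Col11a1. The design had 3 residual degrees of freedom, and S3 added 51201 UMIs to the Het side. The count of calls depended on the WT libraries, with 41 calls without S1, 11 without S2, 2 without S5 and 3 without S6. Without S1, 9 of the 41 were collagens and 4 haemoglobins. Without S2, 3 of the 11 were collagens and 2 haemoglobins, and Top2a, Mki67 and the histone genes Hist1h2ap and Hist1h1b were also called. Without S5 or S6 all calls were collagens.

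Genes of division had the same sign throughout, without a call in the main edgeR test over the 6 libraries. All 15 cell cycle genes were higher in Het in the fit, 5 of them at an unadjusted p under 0.05 (Tpx2, Prc1, Top2a, Mki67 and Cenpf), with a median of 0.58 on the log2 scale against -0.02 over all genes tested. The kit version 3 levels of Top2a, as TMM-scaled CPM, were 149 in S1 and 238 in S2 against 787 in S3 and 302 in S4, a log2 difference of 1.20 ± 0.44 (SE, edgeR adjusted p = 0.712). Top2a was called without S2 (1.64, adjusted p = 0.00970), as was Mki67, and with the replicate block (1.19, adjusted p = 0.0307), and without S3 its difference was 0.63. Chil3 was at 1481 and 1535 against 4141 and 2327 (1.07 ± 0.34, adjusted p = 0.712). Without S3 its difference was 0.61, and with cells thinned to 1000 UMIs it was called (1.14, edgeR adjusted p = 0.0117). Camp (0.40 ± 0.28), Ngp (0.41 ± 0.29) and Ltf (0.29 ± 0.27), which chose the cells, had adjusted p-values of 0.802, 0.802 and 0.848.

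Genes of later stages, and the surface receptors as a separate list, were mostly lower in Het, also without a call in the main edgeR test. Of 12 mature-stage genes 11 were lower, 6 at an unadjusted p under 0.05, with a median of -0.52. Of 23 surface receptors 19 were lower, 7 at that level (among them Cxcr4, Clec4d, Fpr2, Fcgr4, Cxcr2 and Fpr1), with a median of -0.45. Cxcr4, the receptor that holds neutrophils in marrow, had 160 and 121 TMM-scaled CPM in S1 and S2 against 82.8 and 70.4 in S3 and S4 (-0.96 ± 0.31, edgeR adjusted p = 0.712). Retnlg, which is in neither list and chose the cells, was at 12240 and 13370 against 4638 and 8272 (-0.98 ± 0.30, adjusted p = 0.647). Secondary granule genes had a median of 0.02 and the 6 oxidase subunits one of -0.09. Of 10 tested stress response genes 0 reached an unadjusted p under 0.05, with a median of 0.11.

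Of the 10 named genes of lowest p, 3 were cartilage collagens, and none of the 10 was called in the main edgeR test. Those higher in Het were Col2a1 (2.43 ± 0.41), Col9a3 (2.78 ± 0.52), mt-Atp8 (1.77 ± 0.36), AY036118 (1.11 ± 0.23, SE) and Col11a1 (2.19 ± 0.45), each with an edgeR adjusted p of 0.290. Col2a1, the main cartilage collagen, was at 29.1 and 27.9 TMM-scaled CPM in S1 and S2, 269 and 123 in S3 and S4, and 948 and 501 in the WT libraries S5 and S6. Those lower in Het were the interferon-induced Ifi27l2a (-1.65 ± 0.32, adjusted p = 0.290), the ectonucleotidase Nt5e (-1.57 ± 0.39, 0.597), Cmtm6 (-1.26 ± 0.32, 0.597), the actin regulator Wipf1 (-1.52 ± 0.41, 0.615) and Ankrd44 (-1.04 ± 0.29, 0.615). Ifi27l2a was at 172 and 142 TMM-scaled CPM in S1 and S2 against 20.7 and 55.7 in S3 and S4. Without S4, which leaves S3 as the only Het library, all 10 kept their sign but sizes moved. Cmtm6 was then at -0.59, Ifi27l2a at -2.98, mt-Atp8 at 1.07 and Wipf1, with 0 counts in S3, at -10.45. Over the 18 alternatives the adjusted p of Col2a1 ran from 2.68e-08 to 0.976 and that of Ifi27l2a from 0.00284 to 0.893. DESeq2 called the 3 collagens. Without the low-count filter edgeR called these 3 and also mt-Atp8, Ifi27l2a and Wipf1.

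Markers of other cells also had differences between genotypes in the fit, but none was called in the main edgeR test over the 6 libraries. DESeq2 called the markers Col2a1, Col9a3 and Col11a1 over the same libraries. With the kit version 3 libraries alone 7 of the 32 genes called were such markers. Of 7 cartilage markers tested in members 7 were higher in Het, 6 at an unadjusted p under 0.05, with a median of 2.23. The 10 markers summed to 84.4 and 73.1 CPM in S1 and S2, 527 and 397 in S3 and S4, and 2517 and 1204 in S5 and S6, where the libraries held 102, 151, 762, 1131, 6286 and 1831 cartilage cells. Of 6 erythroid markers 6 were lower, 4 at that level (median -2.27), and the 8 markers summed to 16151 and 52510 CPM in S1 and S2 against 508 and 12427 in S3 and S4. In the WT libraries S5 and S6 they summed to 339 and 119 CPM, below both of these Het libraries. The part of RNA from other cells in these differences was not tested.

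Whether the genotype difference was that of macrophages of the same libraries was tested as a genotype by cell type term, with the library as a block. The term passed for 52 of 10223 genes (0.509%), of which 42 were more positive in neutrophil lineage cells and 10 more negative. Of the 42, 29 were in the neutrophil lists or among the leading genes, and 31 were at least 10-fold higher in members than in macrophages of S1 and S2. The leading genes and this fold come from the same libraries as the term. Their share over all tested genes was not counted, so these counts are a description only. Genes of the rule, such as S100a8, S100a9, Mmp8 and Retnlg, are among the calls, but their level in members was set by the selection. Of genes outside the rule, Lcn2 had a difference of 4.34 ± 0.87 (log2, SE, edgeR adjusted p = 0.000352). In members alone Lcn2 differed by 0.24 ± 0.25 (edgeR adjusted p = 0.865), and in macrophages, where its levels were low, by -4.12. Cebpe was also called, but it had 0 counts in the Het macrophages, so no fold is given. The 10 were led by the collagen gene Col8a1 (-4.50 ± 0.56, edgeR adjusted p = 7.48e-12). It was at 9.71 and 0 CPM in macrophages of S1 and S2 and 318.9 and 206.7 in S3 and S4. In members of S1 to S4 it was at 42.5, 5.22, 39.1 and 57.1 CPM. Of 32 of the 42 with a macrophage estimate, 31 estimates were below 0 in Het macrophages, but over all genes only 4 were called lower there, and Lcn2 was not (edgeR adjusted p = 0.208). Lcn2 was at 8831 and 8272 CPM in members of S1 and S2 and 11992 and 10001 in S3 and S4, and at 162 and 90.1 CPM in macrophages of S1 and S2 and 0 and 12.8 in S3 and S4. Cebpe was at 451 and 505 CPM in members of S1 and S2 and 430 and 503 in S3 and S4, and at 8.44 and 9.48 CPM in macrophages of S1 and S2 and 0 in S3 and S4. S100a8 was at 1956 and 872 CPM in macrophages of S1 and S2 and 2.52 and 15.1 in S3 and S4, while it was 105790, 87641, 106990 and 92608 CPM in members of S1 to S4, which it helped to choose. The share of S100a8 plus S100a9 in cartilage cells moved the same way, at 0.154% and 0.189% against 3.50e-04% and 0.00220%, and the part of free RNA in the calls was not tested. Without S1 the term passed for 3 genes, 0 of them more positive, without S2 for 31 and without S4 for 32. DESeq2 gave 1, and 0 passed without the kit version by cell type term, where 456 had an unadjusted p under 0.05.

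**Figure D5:**
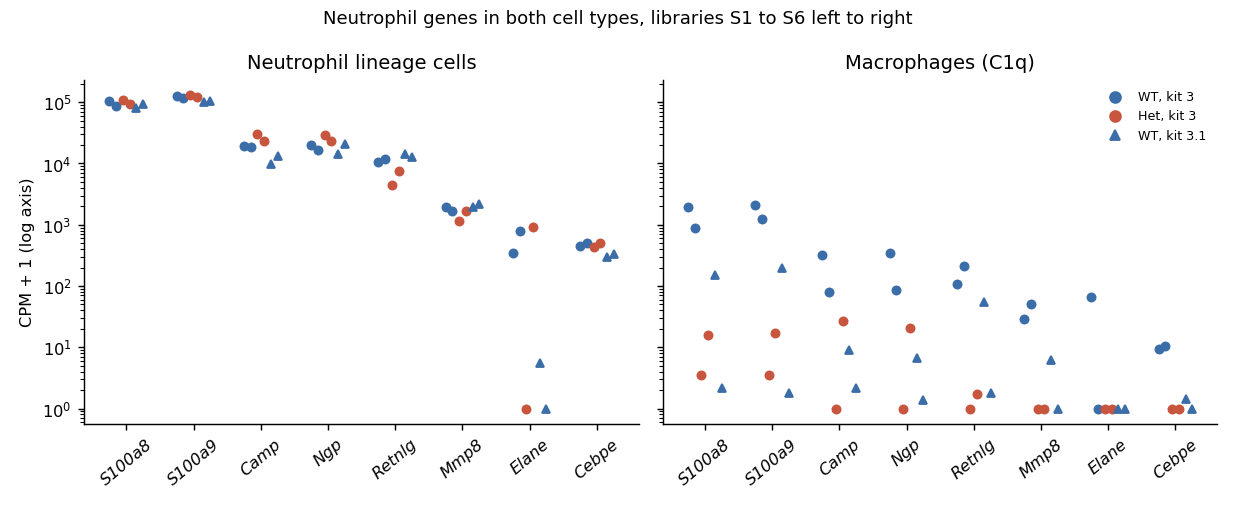
Levels of 8 neutrophil genes as CPM + 1 (log axes) in neutrophil lineage cells (left) and macrophages (right), 1 point per library, S1 to S6 from left to right (blue WT, red Het, circles kit version 3, triangles kit version 3.1). S100a8 is 81690 to 106990 CPM in all 6 libraries on the left, and on the right it is 1956 and 872 CPM in S1 and S2 against 2.52 and 15.1 in S3 and S4.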

How the data were processed

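Per the labels and the study's methods, cells of each library were counted by the authors with Cell Ranger 5.0.0 (S1 to S4) or 6.0.1 (S5 to S8) against mm10, and the deposited matrices hold raw UMI counts per gene and barcode, not normalized, of 31053 genes. The library totals ran from 30480239 to 85162035 UMIs. The members, gene lists and motifs were chosen with earlier results of these data known.

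Cells of at least 500 genes and under 10% mitochondrial UMIs were kept. Doublets were not removed. A haematopoietic cell had at least 3 of 11 listed genes, a macrophage at least 2 UMIs in 2 or more of C1qa, C1qb and C1qc, and a monocyte at least 2 UMIs in 2 or more of Ly6c2, Ccr2, F13a1 and Ms4a4c. Counts were summed per library over members and tested with edgeR 4.0.16 (limma 3.58.1, R 4.3.3) by filterByExpr, TMM, glmQLFit and glmQLFTest, adjusted by Benjamini-Hochberg over all genes tested and called under 0.05. DESeq2 1.42.0 was an alternative. The script was tested on simulated data. Single values were compared by two-sided exact permutation over libraries, and p-values measure the spread between libraries. Shares carry 95% exact binomial (Clopper-Pearson) intervals, and a level of 0 allows 3 counts. CPM of members are summed counts per 1000000 UMIs. Python 3.11.15, numpy 2.4.6, pandas 2.3.3 and scipy 1.17.1 were used.

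Named genes were those of the listed groups by counts with examples, the 15 leading genes outside the rule, the 10 highest and 10 lowest between granule classes, and for genotype the 5 of lowest p in each direction with at least 20 CPM and no overlap of genotypes in kit version 3, without haemoglobin, Xist, Tsix and Y genes. Genes singled out beyond these were chosen after their values were seen. Some genes of the lists are counted but not reported here by name.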

Additional observations from a re-analysis of the deposited data

Results flagged for a closer look

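Within a group of 4 libraries, a value was flagged where the highest or lowest library stood farther from the other 3 than Dixon's 95% limit allows. Of 60 groups examined 7 were flagged, and chance flags about 1 in 20 groups. The Het library S4 stood apart in the share of kept cells that were neutrophil lineage cells (1.63%, others 0.155% to 0.323%) and in their share of haematopoietic cells (16.7%, others 3.64% to 4.83%). Its members also stood apart in the summed level of erythroid markers (12427 CPM, others 26.8 to 508) and of platelet markers (54.3 CPM, others 0, where 0 counts allow up to 58.6 CPM in S3 and 89.3 in S8). WT S2 stood apart in primary granule genes (3410 CPM, others 1731 to 1822). Het S8, with 7 members, stood apart in mature-stage genes (15094 CPM, others 12832 to 13152), and Het S7, with 9, in B cell markers (736 CPM, others 0 to 40.8).

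The genotype difference differed between neutrophil lineage cells and macrophages for 52 genes by the genotype by cell type term. The values of both cell types are given with that comparison, and the part of free RNA in them was not tested.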

How the results depend on the processing

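The genotype differences in both shares, in the stage ratio and in the share of dividing cells kept their direction under every alternative run. Their p-values stayed above 0.05. For the stage ratio and the dividing cells a p under 0.05 was possible only with granule genes counted from 1 UMI (p = 0.343 and 0.286, exact permutation), and for the permutation within kit version it was not possible. Leaving out 1 library, they ran from -13.2 to -5.81 points for the share of kept cells (-5.81 without S1), from -22.3 to -11.1 for the share of haematopoietic cells, from -2.27 to -1.42 for the stage ratio and from 11 to 22.7 points for dividing cells. The 0 genes called in members became 3 with DESeq2, 39 without the low-count filter, 12 with cells thinned to 1000 UMIs and 32 with kit version 3 libraries only, an alternative chosen after seeing the data. Leaving out 1 library gave 0 to 41, namely 41 without S1, 11 without S2, 2 without S5, 3 without S6 and 0 without S3 or S4. Without S1, 16 of the 41 were markers of other cells and 1 was a gene of the neutrophil lists. The 52 calls against macrophages became 1 with DESeq2 and 0 without the kit version by cell type term, and 3 to 56 leaving out 1 library (3 without S1, 31 without S2, 32 without S4). With genotype alone in the model Col2a1 (-1.01), Col9a3 (-0.77) and Col11a1 (-0.38) turned negative, and without the low-count filter Ltf did (-0.02). The cause was not tested. With a replicate block on the numbers that the labels give, 27 of 5067 genes were called with 1 residual degree of freedom. The numbers pair only 2 Het and 2 WT libraries, whose deviations correlated at -0.08 over 3751 genes, so they share only a number. Depth limits S3, S7 and S8 most, where levels of up to 58.6, 40.1 and 89.3 CPM are allowed at 0 counts.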

Other observations

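Subunits of the phagocyte oxidase were detected in all 8 libraries. Cyba ran from 1231 CPM (S7) to 1864 CPM (S4), Cybb from 625 (S8) to 1250 (S3), Rac2 from 1109 (S4) to 1406 (S3), Ncf1 from 544 (S5) to 780 (S6) and Ncf4 from 298 (S8) to 586 (S3). Cyba and Ncf4 were lower in all 4 libraries of kit version 3.1 than in all 4 of kit version 3. Spi1, the myeloid transcription factor PU.1, ran from 332 CPM (S3) to 589 CPM (S7) and was close to its mean in monocytes (465 CPM) and macrophages (433 CPM), whereas Cebpa had 0 counts in 4 of the 8 libraries and at most 8.91 CPM.

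Cxcl2 was at 1110 CPM in S5 and 96.6 to 298 CPM in the other libraries. Slc7a11, the cystine transporter of the stress response list, was at 255, 342, 371 and 266 CPM in S1 to S4 and 1635, 1308, 736 and 834 CPM in S5 to S8, and within S1, S2 and S4 it was lower in cells over 5% granule transcript by -2.67 ± 0.32 (log2, SD, n = 3).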
